A study of Phyllostachys edulis with 12 samples.

Results

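A set of 36 genes in moso bamboo seedlings was counted well in untreated plants. After a day at -2 °C its members stood at 1.86 to 7.50 times their untreated level. At 0.5 h and 1 h the choice of genes held the means under 1.5 times that level, and most were slightly above it. The set was taken from 47091 genes in the count table, of which 10687 had a control mean of at least 20 CPM (counts per 1000000 counts of a library). Members were chosen by their CPM values: a control mean of at least 20 CPM, and both 24 h values at least 75% above the highest control value. In addition, the lower 24 h value was under 4 times the highest of the 9 other libraries, and the 0.5 h mean and the 1 h mean were each under 1.5 times the control mean. These conditions used the values of all 11 libraries, so the members' differences between groups are given below as a description, and counts of calls support nothing about the choice itself.

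Moso bamboo (Phyllostachys edulis) is a large woody grass. Seedlings 3 weeks old, at the 3-leaf stage and grown in a green house, spent 0.5 h, 1 h or 24 h at -2 °C in a freezing chamber, with light and day length as for the control seedlings, which had no cold treatment. RNA of whole seedlings was sequenced. The libraries used were 3 controls, 3 of the 0.5 h group, 3 of the 1 h group and 2 of the 24 h group, with totals of 29304206 to 34543663 counts. A library is a mixture of all cells of a seedling, so a change in the number of cells of a type and a change in RNA per cell cannot be told apart. The labels give neither the plants behind a replicate nor a harvest clock time, and a difference in the hour of harvest cannot be told apart from time in the cold.

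In grasses and other plants, cold is first met by a fast wave of transcription factors, among them the CBF/DREB1 proteins, which rise within minutes to hours. These factors then switch on slower target genes, such as dehydrins and other cold-regulated proteins, enzymes of sugar metabolism and membrane lipid desaturases, whose transcripts build up over a day or more. Genes that are already active in warm plants and increase late in the cold are known from many such functions. The count table does not pair its identifiers with names or descriptions, so none of the 36 genes can be placed in these groups, the seedling tissue could not be checked against marker genes, and no sequence is shown. Members are referred to by their rank, where rank 1 has the highest mean CPM at 24 h, and 2 of them are given by identifier.

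The member with the most counts was Phyllostachys_edulis_newGene_29252, rank 1, a gene model listed as new in the table, with a listed length of 4707 bases. It had 295, 314 and 298 CPM in the control libraries, 351, 341 and 389 CPM at 0.5 h, 351, 392 and 359 CPM at 1 h, and 556 and 570 CPM at 24 h. Each cold library lay above each control library, and both 24 h libraries lay above all others. The mean was 563 ± 10.1 CPM at 24 h (SD, n = 2) and 302 ± 10.2 CPM in the controls (SD, n = 3), a ratio of 1.86, the smallest among the members. On the TMM scale, which also corrects for the composition of each library, the log2 fold change at 24 h against the control was 1.06 (SE 0.10, edgeR adjusted p = 0.00015). The log2 fold change against the control was 0.28 at 0.5 h (SE 0.09, edgeR adjusted p = 0.84). At 1 h it was 0.22, again with an SE of 0.09 (edgeR adjusted p = 0.72).

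PH01000043G1290, rank 8, had the largest ratio of its lower 24 h value to its highest control value, at 6.61. Its values were 32.2, 25.5 and 32.2 CPM in control plants, 37.5, 27.5 and 54.8 CPM at 0.5 h, 42.0, 45.4 and 40.9 CPM at 1 h, and 236 and 213 CPM at 24 h. The 1 h libraries lay above the controls, the 0.5 h libraries overlapped them, and the 24 h libraries were several times above everything earlier. The mean of 225 ± 16.4 CPM at 24 h (SD, n = 2) was 7.50 times the 30.0 ± 3.89 CPM of the controls (SD, n = 3). On the TMM scale the log2 fold change came to 3.07 ± 0.24 (SE), with an edgeR adjusted p of 3.6e-05. It rested on 7077 and 6927 counts at 24 h and on 856 to 1040 counts per control library, and it was also the member closest below the upper limit of the rule, with its lower 24 h value 3.89 times the highest earlier value.

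**Figure D1:**
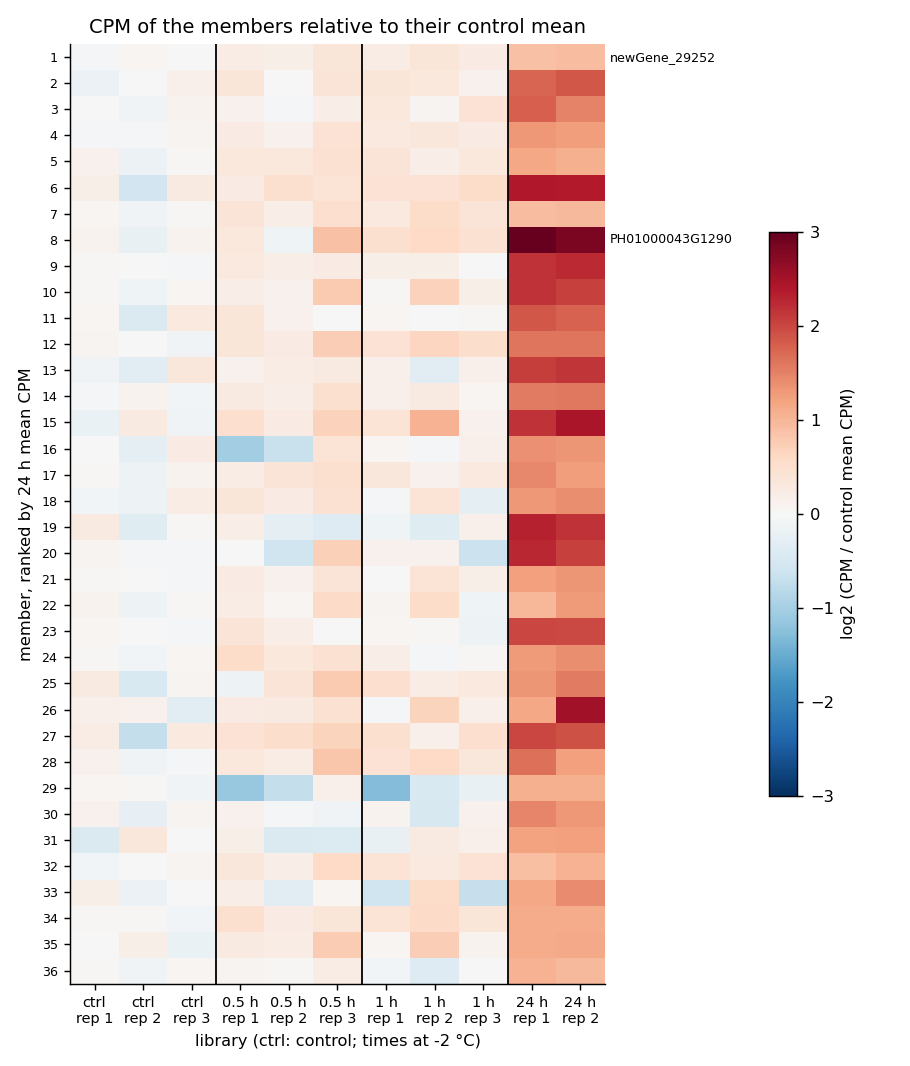
Rows are the 36 members, ranked by mean CPM at 24 h, and columns are the 11 libraries by time at -2 °C. Colour is the log2 ratio of a library's CPM to the member's control mean. Both 24 h columns are red in every row, and the 0.5 h and 1 h columns are mostly pale red. Several members have blue cells at 0.5 h or 1 h, among them rank 16 at 0.5 h and rank 29 at both times.

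Over the 36 members, the 24 h mean was 1.86 to 7.50 times the control mean, with a median of 2.67. The median over the other 10651 genes with a control mean of at least 20 CPM was 0.935. For 18 members the ratio lay between 2 and 3, for 7 between 3 and 4, for 8 above 4 and for 3 below 2. The largest ratios after that of PH01000043G1290 were 5.24 (rank 6), 4.97 (rank 15) and 4.69 (rank 19). Rank 6 had 248 and 244 CPM at 24 h, against 53.2, 31.5 and 56.2 CPM in the controls.

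In the deposited counts the members were a small part of each library. Together they took 0.193%, 0.182% and 0.199% of all counts in the controls, 0.225%, 0.209% and 0.256% at 0.5 h, 0.224%, 0.238% and 0.223% at 1 h, and 0.544% and 0.545% at 24 h. Of the members' summed CPM at 24 h, rank 1 held 10.3%, the first 5 held 38.1% and the first 10 held 57.2%. Per kilobase of listed length, the 24 h level ran from 1.58 to 151 CPM per kb, with a median of 27.9, against 0.815 to 64.2 with a median of 8.46 in the controls. By this measure rank 3 led with 151 CPM per kb, followed by rank 9 with 149 and rank 1 with 120. The table does not say whether introns are part of the listed length, which reached 151087 bases for rank 7, so levels per kilobase are uncertain.

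**Figure D2:**
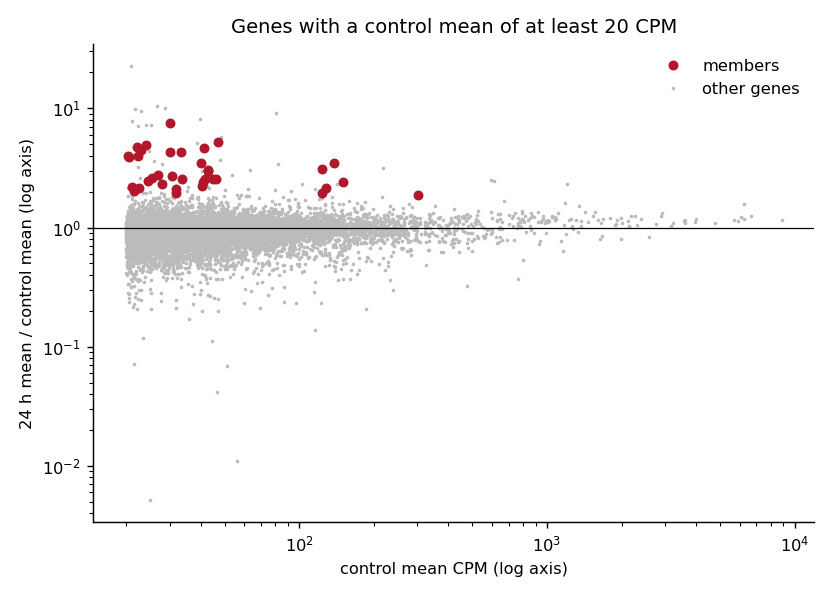
Each point is a gene with a control mean of at least 20 CPM, with the control mean on the horizontal axis and the ratio of the 24 h mean to the control mean on the vertical axis, both logarithmic. The 36 members lie between ratios of 1.86 and 7.50 and between control means of 20.3 and 302 CPM, while the other genes centre at 0.935.

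All 36 members passed the filter on low counts, as a control mean of 20 CPM makes nearly certain, and were tested in a fit of all 39640 genes kept. At 24 h against the control, edgeR called 35 of the 36 higher and 0 lower, where 3.25% of all tested genes were called higher and 4.34% lower. Scaled by library size alone, the same 24 h contrast called 35 members higher and 0 lower, but 2.16% of all genes higher and 7.47% lower. Since the rule used this contrast, nothing is read from that count. The members' log2 fold changes ran from 1.06 to 3.07 with a median of 1.58, and their standard errors from 0.0916 to 0.347. The median over all tested genes was -0.01. In the same contrast 401 other genes with a control mean of at least 20 CPM were called higher, with a median log2 fold change of 0.61.

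Rank 9, with a listed length of 1279 bases, had the smallest standard error among the members at 24 h against the control. It had 41.9, 41.4 and 40.1 CPM in control plants, 50.7, 47.2 and 48.7 CPM at 0.5 h, 46.5, 46.7 and 41.4 CPM at 1 h, and 186 and 195 CPM at 24 h. Its replicates lay within a few CPM of each other at every time before 24 h. The log2 fold change at 24 h against the control was 2.38 with a standard error of 0.09 and an edgeR adjusted p of 1.4e-06.

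Rank 29 was the member not called in the fit of all 4 groups. Its values were 33.1, 32.7 and 29.5 CPM in control plants, 14.4, 19.3 and 35.5 CPM at 0.5 h, 12.97, 23.3 and 27.3 CPM at 1 h, and 66.7 and 66.9 CPM at 24 h. Its early libraries were spread widely and lay mostly below the controls, while the 24 h libraries nearly coincided. The log2 fold change at 24 h was 1.24 (SE 0.35, edgeR adjusted p = 0.056). An edgeR fit of the control and 24 h libraries alone called 36 members higher, with 934 higher and 1014 lower over all genes. As the rule used this contrast, that count is a description.

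Another member rested on unequal 24 h libraries. Rank 26 had 45.2 and 115.5 CPM at 24 h, 2.56 times apart, against 22.4, 22.1 and 16.4 CPM in the controls. Both values were above every earlier library, of which the highest was 32.5 CPM, but the 24 h mean rested mostly on replicate 2. For the other members the pair of 24 h libraries was close. The higher value exceeded the lower by a factor of 1.07 in the median over the members, against 1.11 over the other genes of at least 20 CPM, and it was more than 25% above it in 2 members, ranks 26 and 28.

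**Figure D3:**
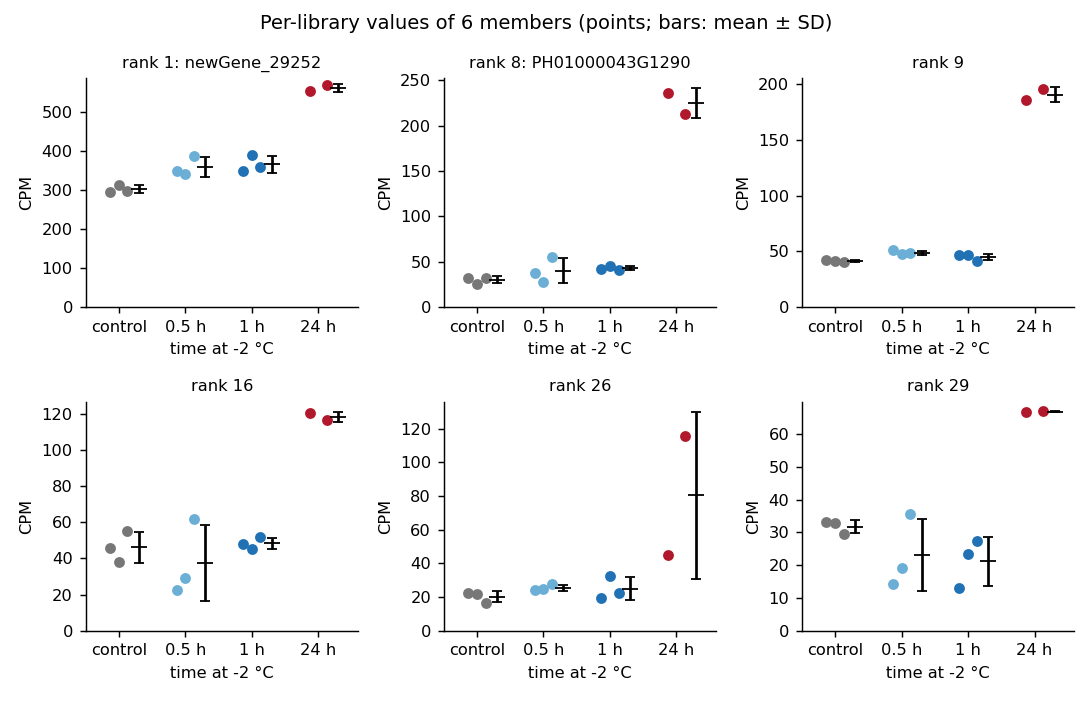
CPM per library for 6 members, with points for libraries and bars for the mean ± SD of each group, by time at -2 °C. The 24 h points lie above all others in each panel, 24 h replicates of rank 26 stand at 45.2 and 115.5 CPM, and the 0.5 h points of ranks 16 and 29 spread from below to above their control means.

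All 36 members had both 24 h libraries above all 9 other libraries. The rule did not ask for this directly, but its limits on the rise and on the early means make it likely, so nothing is read from it. The same held for 6.14% of the 10687 genes with a control mean of at least 20 CPM. The lower 24 h value was 1.247 to 3.89 times the highest of the 9 others, with a median of 1.83, and at least doubled it in 15 members. At 24 h against 1 h, edgeR called 36 of 36 members higher (background 4.65%), with log2 fold changes of 0.76 to 2.61 and a median of 1.55. At 24 h against 0.5 h it called 35 of 36 (background 1.88%), with a range of 0.71 to 2.62 and a median of 1.48. The member not called was rank 35, with 45.7 and 46.8 CPM at 24 h, against 25.4, 24.6 and 36.2 CPM at 0.5 h (log2 fold change 0.82, SE 0.22, edgeR adjusted p = 0.059). Both contrasts share the 24 h libraries with the rule, so these counts too are a description.

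The rise at 24 h was also looked at in libraries left out of the choice. With 24 h replicate 2 left out, the same conditions chose 41 genes, and in the left-out library 34 of them (82.9%) were at least 75% above the highest control, as were 0.767% of all genes with a control mean of at least 20 CPM. All 41 lay above the highest control there, against a background of 21.3%, and the median ratio of the left-out library to the control mean was 2.48. With 24 h replicate 1 left out, 54 genes were chosen. In that library 36 of them (66.7%) were at least 75% above it (background 0.646%), 53 lay above the highest control (background 19.8%), and the median ratio was 2.23, with 1 gene as low as 0.58. Both checks share the control libraries with the choice, which favours low control values, while the background genes were not chosen in this way. The gap to the backgrounds is therefore partly set by the choice, and these shares are a description.

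Controls were left out in the same way, which keeps the 24 h libraries shared instead. Without control replicates 1, 2 and 3 the conditions chose 37, 41 and 46 genes. In 33, 39 and 35 of these, or 89.2%, 95.1% and 76.1%, the lower 24 h value was at least 75% above the left-out control, against backgrounds of 1.35%, 1.55% and 1.09%. Every chosen gene had both 24 h values above the left-out control, where the backgrounds were 27%, 29.4% and 29.7%. The same 24 h values had served in the choice, while the background genes were not chosen for a rise. These shares are therefore a description, and nothing is read from them. The median ratios of the 24 h mean to the left-out control were 2.49, 3.12 and 2.35.

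**Figure D4:**
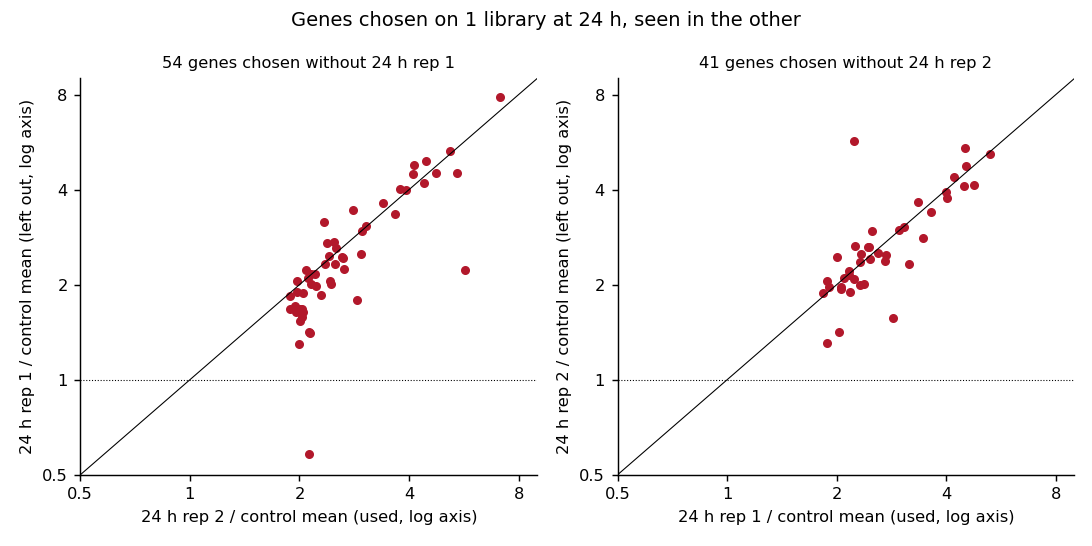
Each point is a gene chosen with 1 of the 24 h libraries left out, 54 genes on the left and 41 on the right. The horizontal axis is the ratio of the 24 h library used in the choice to the control mean and the vertical axis that of the library left out, both logarithmic, with a line of equality and a dotted line at 1. All points but 1 lie above the dotted line, and the lowest is at 0.58.

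Before 24 h most members were slightly above the control. The 0.5 h mean was above the control mean in 30 of 36 members (83.3%), as it was in 38.6% of the 10687 genes of at least 20 CPM. For the 1 h mean these were 29 of 36 (80.6%) and 58.4%. The median ratio to the control mean was 1.24 at 0.5 h and 1.20 at 1 h, against 0.978 and 1.03 over the other genes. All 3 libraries at 0.5 h lay above all 3 controls in 18 members (background 2.18%), and all 3 at 1 h did so in 11 (background 6.96%). The rule favours genes with low control values and bounds both early means from above, and the early comparisons share the controls with it, so nothing is read from these shares.

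None of these early differences passed edgeR's test. At 0.5 h against the control edgeR called 0 members, where 0.00757% of all tested genes were called higher and 0.00252% lower. At an unadjusted p under 0.05, 18 members were higher and 0 lower, where 2.76% of all tested genes were higher and 1.88% lower. DESeq2 called 4 members higher and 0 lower (backgrounds 0.464% and 0.0836%). At 1 h edgeR called 0 members (backgrounds 0.00505% higher and 0% lower). At an unadjusted p under 0.05, 10 were higher and 0 lower (backgrounds 3.59% and 3.29%), and DESeq2 called 1 higher and 0 lower (backgrounds 0.327% and 0.146%). The members' log2 fold changes ran from -0.42 to 0.58 at 0.5 h and from -0.64 to 0.52 at 1 h. These contrasts too share the controls with the rule.

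The members are sorted here by whether their early libraries overlapped the controls. This is a description only, as the rule used these values and edgeR called 0 members at either early time. In 9 members both the 0.5 h and the 1 h libraries were all above the controls (background 0.777%), with early ratios of 1.19 to 1.45 and 24 h ratios of 1.86 to 3.05. Rank 12 is an example, with 131 and 130 CPM at 24 h, 57.4, 66.4 and 62.0 CPM at 1 h and 55.4, 51.0 and 71.3 CPM at 0.5 h, against 45.0, 43.4 and 39.9 CPM in the controls. Another 9 had the 0.5 h libraries alone above the controls (background 1.4%), and 2 had the 1 h libraries alone (background 6.19%). The 0.5 h libraries were all below the controls in 0 members (background 4.72%), and the 1 h libraries in 1 (background 4.18%), rank 29. The remaining 15 overlapped the controls at both early times.

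A few members were at or below the control early on. Both early means were under the control mean in 4 members, the 0.5 h mean alone in 2 and the 1 h mean alone in 3. Rank 19 had 26.4, 17.1 and 22.7 CPM in the control libraries, 25.4, 18.2 and 17.0 CPM at 0.5 h, 20.3, 17.1 and 24.7 CPM at 1 h, and 109 and 98.6 CPM at 24 h. Its early libraries overlapped the controls at both times, and its 24 h libraries stood far above them. Rank 16 had 22.4, 28.96 and 61.6 CPM at 0.5 h, against 45.9, 37.8 and 54.9 CPM in the controls, so its 0.5 h libraries lay on both sides of the control range.

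**Figure D5:**
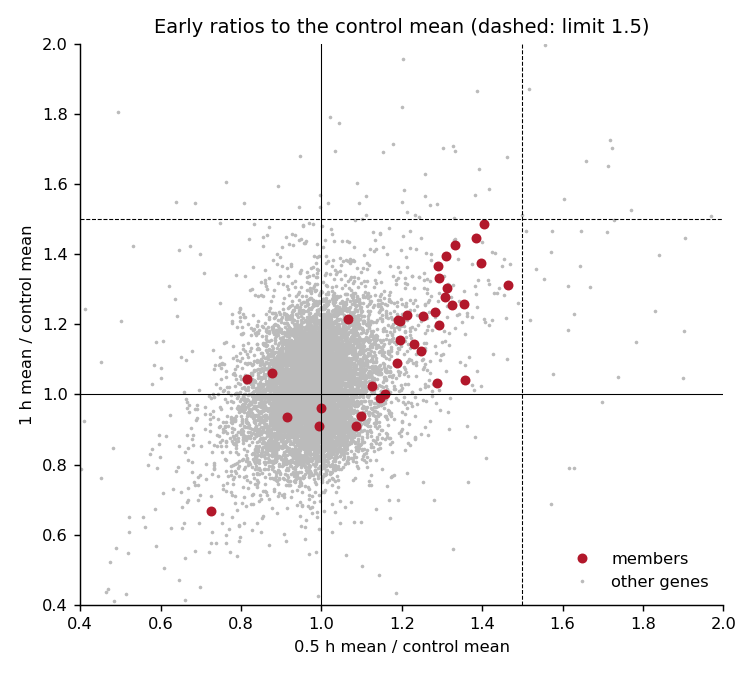
The ratio of the 0.5 h mean to the control mean (horizontal) and of the 1 h mean to the control mean (vertical) for the members and the other genes of at least 20 CPM. Dashed lines mark the limit of 1.5 that the rule sets, and other genes beyond 0.4 to 2 are outside the plot. Most members lie right of and above 1, and rank 29 is lowest at 0.725 and 0.668.

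Single early libraries carried part of this lift. Of the 3 libraries at 0.5 h, replicate 3 was the highest in 26 of 36 members (72.2%), against 38.2% of the other genes. The median ratio to the control mean was 1.19, 1.14 and 1.36 for 0.5 h replicates 1, 2 and 3, and 1.12, 1.22 and 1.12 for the 1 h replicates. Without 0.5 h replicate 3 the median 0.5 h ratio was 1.16 in place of 1.24, and without 1 h replicate 2 the median 1 h ratio was 1.08 in place of 1.20. These last 4 medians were added after the values were seen, and what sets those libraries apart was not tested.

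Between 0.5 h and 1 h, the contrast least tied to the rule, no member was called. The median log2 fold change at 1 h against 0.5 h was -0.14, against -0.01 over all genes of at least 20 CPM, and it was negative in 31 members and positive in 5. This rested on 0.5 h replicate 3, without which the members' median was 0.0071 and 17 were negative. With library size alone the members' median was -0.05 and 23 were negative. The median over all tested genes was 0.0909 on that scale and 0.00434 with TMM, so the members' median was the lower on both. On plain CPM the 1 h mean was above the 0.5 h mean in 13 members (36.1%, against 64.3% of the genes of at least 20 CPM). The count in each direction thus moved with the scaling, while the members stayed lower than the other genes with 0.5 h replicate 3 included. The edgeR background was 0.00252% called higher and 0% lower. At an unadjusted p under 0.05, 0 members were higher and 6 lower (backgrounds 3.25% and 3.71%), and DESeq2 called 0 higher and 1 lower (backgrounds 0.177% and 0.167%). The 1 h libraries lay all above the 0.5 h libraries in 0 members (background 14.4%) and all below them in 3 (background 5.93%). Rank 24 differed most, with 38.2, 32.1 and 34.4 CPM at 1 h, against 48.7, 41.3 and 46.2 CPM at 0.5 h. Its groups did not overlap, and the log2 difference of -0.47 ± 0.10 (SE) had an edgeR adjusted p of 0.56.

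Identifier type, length and neighbours were not used by the rule. Of the members, 6 of 36 (16.7%) were listed as newGene, as were 16% of the genes of at least 20 CPM. Listed lengths ran from 1000 to 151087 bases with a median of 4844, against a median of 6822 for the other genes of at least 20 CPM. The 30 members with a PH01 identifier carried 30 different prefixes before the letter G. Of the 48 tested genes listed directly before or after a member under the same prefix, edgeR called 1 higher (2.08%) and 1 lower (2.08%) at 24 h, where 3.64% and 4.67% of all PH01 genes were called. Their median log2 fold change was 0.12.

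A single pair of members had consecutive newGene numbers. Rank 4, with a listed length of 12338 bases, has the number directly before that of Phyllostachys_edulis_newGene_29252. It had 371 and 362 CPM at 24 h, against 145, 148 and 159 CPM in the controls, a ratio of 2.43. The CPM of rank 1 over that of rank 4 was 1.498 and 1.575 at 24 h, against 1.877 to 2.12 in the libraries before that. The ranges do not overlap, so the pair did not move in a fixed proportion. The sources used here do not say how reads that fit both gene models were counted.

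The spread between replicates was measured by the coefficient of variation, whose median over the members was 9.14% in the controls, 12.3% at 0.5 h, 10.05% at 1 h and 4.77% at 24 h. Over the other genes of at least 20 CPM it was 10.7%, 8.63%, 11.3% and 7.15%. A bound on the highest control and on the lower 24 h value favours genes with close replicates at both, so these figures describe the choice. Counts per library behind a member's value ran from 420 to 18540.

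Members and excluded genes lay closest to each other at the limit on the rise, and the gap was widest at the upper limit. For the rise, the members nearest the limit had a lower 24 h value of 1.769 and 1.770 times the highest control, and the nearest genes that failed this condition alone were at 1.735 and 1.719. For abundance, the lowest control means inside were 20.3 and 20.6 CPM and the highest outside 18.73 and 18.72 CPM. This condition alone excluded 236 genes. For the upper limit of 4, members reached 3.89 and 3.73 and the next genes stood at 4.90 and 5.29, with 6 genes failing this condition alone. For the early limit of 1.5, members reached 1.46 at 0.5 h and 1.49 at 1 h, and the nearest outside were at 1.61 and 1.57, with 8 and 2 genes failing on that condition alone. In all, 58 genes of at least 20 CPM met the condition on the rise. Of these, 36 were members, 6 exceeded only the upper limit, 13 only an early limit and 3 both.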

How the data were processed

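The authors deposited raw counts per gene, whole numbers with a separate total for each library, and a gene length, used only to give levels per kilobase. Per the submitters' processing notes HISAT2 was used to align reads. For its version, the genome build, the annotation, strandedness and the counting tool: not given in the sources used here. Each column was tied to a sample through the code in that sample's description. This left 11 libraries, 1 count column that matched no label and was not used, and 1 labelled sample (24 h replicate 3) not analysed here. Should the table's codes be separate from those of the labels, the 24 h libraries would have other replicate numbers and the unused column might be one of them. The tests, planned for 3 libraries at 24 h, had 2.

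CPM is the count divided by the library total, times 1000000. Tests used R 4.3.3 and edgeR 4.0.16: filterByExpr (39640 of 47091 genes kept), TMM factors (0.892 and 0.923 at 24 h, 0.982 to 1.06 elsewhere), 1 quasi-likelihood fit of the 4 groups, Benjamini-Hochberg adjustment over all genes tested, and calls at an adjusted p under 0.05. Standard errors are the log2 fold change over the square root of F. DESeq2 1.42.0 was an alternative. Replicates may be technical, so p-values measure only the spread between these samples. The rule for identifiers in the text took the member with the highest 24 h mean CPM and the one with the largest ratio of lower 24 h to highest control value, and other members are given by rank. The members, this rule and the tests were chosen with earlier results of these data known. Lists by gene function could not be applied without names. Same-numbered replicates did not deviate together. The scripts were tested on simulated data.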

Additional observations from a re-analysis of the deposited data

Results flagged for a closer look

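Differences between times that passed edgeR's test of the difference itself are given here. As the control cancels, the 24 h effect minus an early effect is the contrast between those times. It passed for 36 members between 24 h and 1 h (background 4.65% called higher) and for 35 between 24 h and 0.5 h (background 1.88%). The rule, with its bound on early values, largely fixes this, so both counts are a description. For Phyllostachys_edulis_newGene_29252 the log2 difference was 0.84 between 24 h and 1 h (edgeR adjusted p = 0.001) and 0.78 between 24 h and 0.5 h (edgeR adjusted p = 0.0019). For PH01000043G1290 it was 2.61 (edgeR adjusted p = 0.00014) and 2.62 (edgeR adjusted p = 0.00015). No group had 4 libraries, so single libraries were not tested as outliers.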

How the results depend on the processing

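The number of genes that met the conditions depended on the limits set. It was 61 and 16 with a control minimum of 10 and 40 CPM in place of 20, 64 with a rise limit of 1.5, and 19 with an early limit of 25% above the control. With TMM-scaled sizes 48 genes met them, 32 of the 36 members among these, and without single libraries 33 to 54. The members' median ratio of 24 h to control was 2.99 with TMM-scaled sizes, against 2.67, and 2.57 to 2.81 without single libraries. Their share of counts with TMM-scaled sizes was 0.6% at 24 h, against 0.545%, and 0.216% at 1 h, against 0.228%, and it was 0.217% to 0.24% at 0.5 h, 0.223% to 0.231% at 1 h, 0.544% to 0.545% at 24 h and 0.188% to 0.196% in the controls without single libraries. With library size alone, the median over all genes at 24 h was -0.176 on the log2 scale, against -0.012, and over the members 1.42, against 1.58. Without single libraries from before 24 h, 33 to 36 members were called at 24 h against control. Against 1 h it was 34 to 36, and against 0.5 h 30 to 36. Over all genes, 740 to 1471, 1080 to 1881 and 391 to 829 were called higher in these contrasts. No early contrast called a member, and over all genes at most 22 were called higher and 6 lower. As the members were chosen for a late rise, these counts are a description. Fits that leave a lone 24 h library are not counted, as its spread is taken from the other groups. DESeq2 called 4 members at 0.5 h and 1 at 1 h against control, and 1 at 1 h against 0.5 h, where edgeR called 0; the cause was not tested. Over all genes with an adjusted p it called 0.464% higher and 0.0836% lower at 0.5 h, 0.327% and 0.146% at 1 h, and 0.177% and 0.167% at 1 h against 0.5 h. At 24 h against control, all genes called higher and lower were 1288 and 1720 by edgeR, 858 and 2963 with library size alone, and 2206 and 2669 by DESeq2. Over the alternatives that kept both 24 h libraries, DESeq2 gave the lowest adjusted p at 24 h against control and edgeR the highest. They were 9.5e-27 and 0.0054 for Phyllostachys_edulis_newGene_29252, and 3.2e-36 and 0.00039 for PH01000043G1290. No shared deviation was seen between same-numbered replicates: their correlations were -0.0435 to 0.0335, and 0 of 11 libraries correlated best with their own number. This cannot show whether the samples were paired by design, and the replicate numbers at 24 h are uncertain. With a replicate block, 35 members were called at 24 h against control, 36 against 1 h and 33 against 0.5 h, and 0 in each early contrast. Over all genes that fit called 923, 1358 and 497 higher and 1152, 1354 and 747 lower in the late contrasts, in the same order. In an early contrast it called at most 3 higher and 1 lower. Only 2 libraries at 24 h limit every statement on that time.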
